A study of Mus musculus with 12 samples.

Results

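The 10 genes described here encode the enzymes that build fatty acids from citrate, introduce double bonds and lengthen the chains. They are Acly, Acaca, Fasn, Scd1, Scd2, Fads1, Fads2, Elovl1, Elovl5 and Elovl6. They were taken by gene symbol from a table of 55335 genes, and all 10 were listed and passed the filter on low values, as did 12622 genes in all. The 10 were chosen by their place in the pathway with earlier results of these libraries known, so the values in every comparison had a part in the choice. Their levels and folds are therefore given as a description, without p-values, and counts of called members are printed beside the share of all genes called and support nothing by themselves.

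RNA was sequenced from bone marrow-derived macrophages (BMDMs) of C57BL/6 mice, which were bone marrow cells grown in macrophage colony-stimulating factor and taken as the adherent cells. Wild-type BMDMs and BMDMs of Nlrp3-/- mice were left untreated (control) or given lipopolysaccharide (LPS), a bacterial ligand of TLR4, for 4 h and then ATP, which opens the P2X7 receptor, for 30 min (LPS+ATP). These times are those of the sample labels, and the methods text of the study gives longer incubations with both agents. Each of the 4 groups had 3 libraries, and nothing states that these came from separate mice or cultures, so errors measure the spread between libraries. Values are FPKM, fragments scaled for transcript length and for the mapped fragments of the library, in which levels of different genes can be compared per length.

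In mammalian cells, Acly cleaves exported citrate to cytosolic acetyl-CoA, Acaca carboxylates it to malonyl-CoA, and Fasn joins these units into palmitate. Scd1 and Scd2 place the first double bond of monounsaturated fatty acids. Fads2 and Fads1 carry out the delta-6 and delta-5 desaturations that lead from dietary linoleic and alpha-linolenic acid to arachidonic and eicosapentaenoic acid, and Elovl5 lengthens the chain between these steps. Elovl6 extends palmitate to stearate, and Elovl1 makes very long saturated and monounsaturated chains. Many of these genes are textbook targets of the sterol regulatory element-binding proteins (SREBPs) and of the liver X receptors (LXRs). In macrophages, the pathway supplies membrane lipid and the precursors of lipid mediators.

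The sequences just upstream of these genes are shown because most of the 10 had lower levels after stimulation and higher ones in Nlrp3-/- BMDMs. RefSeq promoter windows on GRCm38.p6, from 250 bases before to 50 bases after a start site, were found for 7 of the 10 genes, with 8 windows in all, and none was listed for Scd1, Scd2 or Fads1. The windows below are those of Acly (chr11:100527951-100528250, minus strand), Fasn (chr11:120824498-120824797, minus strand), Fads2 (chr19:10101454-10101753, minus strand) and Elovl5 (chr9:77917115-77917414, plus strand), 4 genes that fell after stimulation in both genotypes. In Nlrp3-/- the call of Fads2 was lost under median-ratio scaling, and that of Fasn under median-ratio scaling, which turned its sign, upper-quartile scaling and TPM. They are written 5′ to 3′ on the gene's strand, with matches to the searched motifs on either strand in capitals.
Acly: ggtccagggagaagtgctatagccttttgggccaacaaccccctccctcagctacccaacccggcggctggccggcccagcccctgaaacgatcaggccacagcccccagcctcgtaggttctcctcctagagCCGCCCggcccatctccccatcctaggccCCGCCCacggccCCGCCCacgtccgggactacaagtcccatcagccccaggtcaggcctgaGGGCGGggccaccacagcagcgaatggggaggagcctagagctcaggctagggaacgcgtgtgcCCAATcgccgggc
Fasn: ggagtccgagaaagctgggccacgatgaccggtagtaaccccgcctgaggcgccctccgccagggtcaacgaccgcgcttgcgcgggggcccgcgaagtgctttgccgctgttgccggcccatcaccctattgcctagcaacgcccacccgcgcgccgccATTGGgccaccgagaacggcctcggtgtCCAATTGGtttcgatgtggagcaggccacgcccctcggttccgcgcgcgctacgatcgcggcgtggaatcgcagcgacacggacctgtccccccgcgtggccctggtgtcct
Fads2: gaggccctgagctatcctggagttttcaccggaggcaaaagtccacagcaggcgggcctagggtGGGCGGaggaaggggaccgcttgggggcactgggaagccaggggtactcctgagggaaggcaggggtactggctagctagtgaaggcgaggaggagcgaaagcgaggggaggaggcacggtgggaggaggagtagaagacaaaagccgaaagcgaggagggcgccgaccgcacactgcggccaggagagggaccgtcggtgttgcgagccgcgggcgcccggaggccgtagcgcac
Elovl5: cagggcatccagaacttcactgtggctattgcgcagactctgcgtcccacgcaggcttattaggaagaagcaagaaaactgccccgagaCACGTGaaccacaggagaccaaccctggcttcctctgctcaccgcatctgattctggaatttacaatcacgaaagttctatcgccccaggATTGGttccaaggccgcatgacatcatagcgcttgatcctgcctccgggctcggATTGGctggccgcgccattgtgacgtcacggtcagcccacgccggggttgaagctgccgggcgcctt

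The Fasn window held CCAAT, the box bound by NF-Y, on 3 occasions, at -90, -62 and -59 from the start site, and the latter pair overlap on opposite strands. The start site of that window lies 619 bases inside the annotated gene. The Acly window held the GC box GGGCGG, bound by Sp1, at -117, -88, -76 and -27, and CCAAT at 38. Fads2 held 1 GC box, at -186. Elovl5 held CCAAT at -71 and -17 and the E-box CACGTG at -161. Of the 8 windows, 4 held CCAAT and 4 held GGGCGG, against 37.4% and 35.7% of all 32851 promoters of the same length, and 1 held CACGTG, against 7.15%. The sterol regulatory element core TCACNCCAC was in 0 of the 8 windows and in 1.242% of all promoters, and the DR4 element of LXR was in 0 windows and 0.015% of all. The window of Elovl6 and that of Acaca, whose start site lies 65803 bases inside the gene, held none of these motifs. These matches describe letters in short windows, not binding sites.

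The libraries carried the labelled genotype and stimulation. Nlrp3 read 9.24 to 10.1 FPKM in wild-type control and 32.1 to 33.6 FPKM in wild-type LPS+ATP libraries and was listed at 0 in the 6 Nlrp3-/- libraries, and Il1b was 1366 to 1404 FPKM in stimulated wild-type libraries against at most 0.298 FPKM in their controls. In Nlrp3-/- libraries Il1b was 1.22 to 1.73 FPKM in control and 994 to 996 FPKM with LPS+ATP. It was thus higher than in wild type before stimulation and lower after it. The part of this difference in the responses below was not tested. The 8 macrophage markers were all present, with summed levels of 11054 to 21081 FPKM. Lyz2 made up most of each sum, with group means from 9309 to 18464 FPKM, so the sums say little of the other markers. Among unstimulated groups, the Nlrp3-/- mean was the lower one for Cd68 (877 against 1450 FPKM), Csf1r (164 against 253) and Adgre1 (184 against 237). Of the 8 markers, Mertk alone had the higher mean there (34.1 against 32.4 FPKM). After LPS+ATP, Cd68 (620 against 814) and Adgre1 (327 against 460) were again lower, and Csf1r libraries overlapped. In that state Cd14 alone of the 8 had the higher Nlrp3-/- mean (537 against 530 FPKM). Xist, the RNA of the inactive X chromosome of females, was 32.8 to 56.3 FPKM in every Nlrp3-/- library and at most 0.0416 FPKM in every wild-type library, so the sex of the donors and the genotype cannot be told apart. The mice of both genotypes also came from different suppliers. The summed level of 6 fibroblast markers was 162 to 193 FPKM in wild-type and 925 to 1204 FPKM in Nlrp3-/- libraries. That of 7 neutrophil and precursor markers was 321 to 356 FPKM in wild-type control, 109 to 126 FPKM in wild-type LPS+ATP, 1737 to 1789 FPKM in Nlrp3-/- control and 487 to 517 FPKM in Nlrp3-/- LPS+ATP libraries. Adipocyte markers, of a cell type rich in these enzymes, summed to at most 0.447 FPKM, with Cidec and Lep at 0 in all libraries. Fewer cells of a type and less RNA per cell cannot be told apart in such bulk samples.

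In unstimulated wild-type BMDMs, Acly was the most abundant of the 10, at 50.9 ± 1.03 FPKM (SD, n = 3). Elovl1, Fads1, Scd2 and Elovl5 followed between 23.4 and 27.9 FPKM and were not separated from their neighbours in that order by their libraries. Scd1 and Fasn lay at 13.2 and 13.0 FPKM with overlapping libraries, Fads2 lay at 11.8 FPKM, and Acaca and Elovl6 were the lowest, at 2.58 and 1.97 FPKM. In Nlrp3-/- control BMDMs the order was Acly, Scd2, Scd1, Fads1, Fads2, Elovl1, Elovl5, Fasn, Elovl6 and Acaca, so Scd1 stood above Elovl5 and Elovl6 above Acaca, unlike in wild type. Adjacent genes in this second order were separated in every library except Fads2 and Elovl1.

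**Figure D1:**
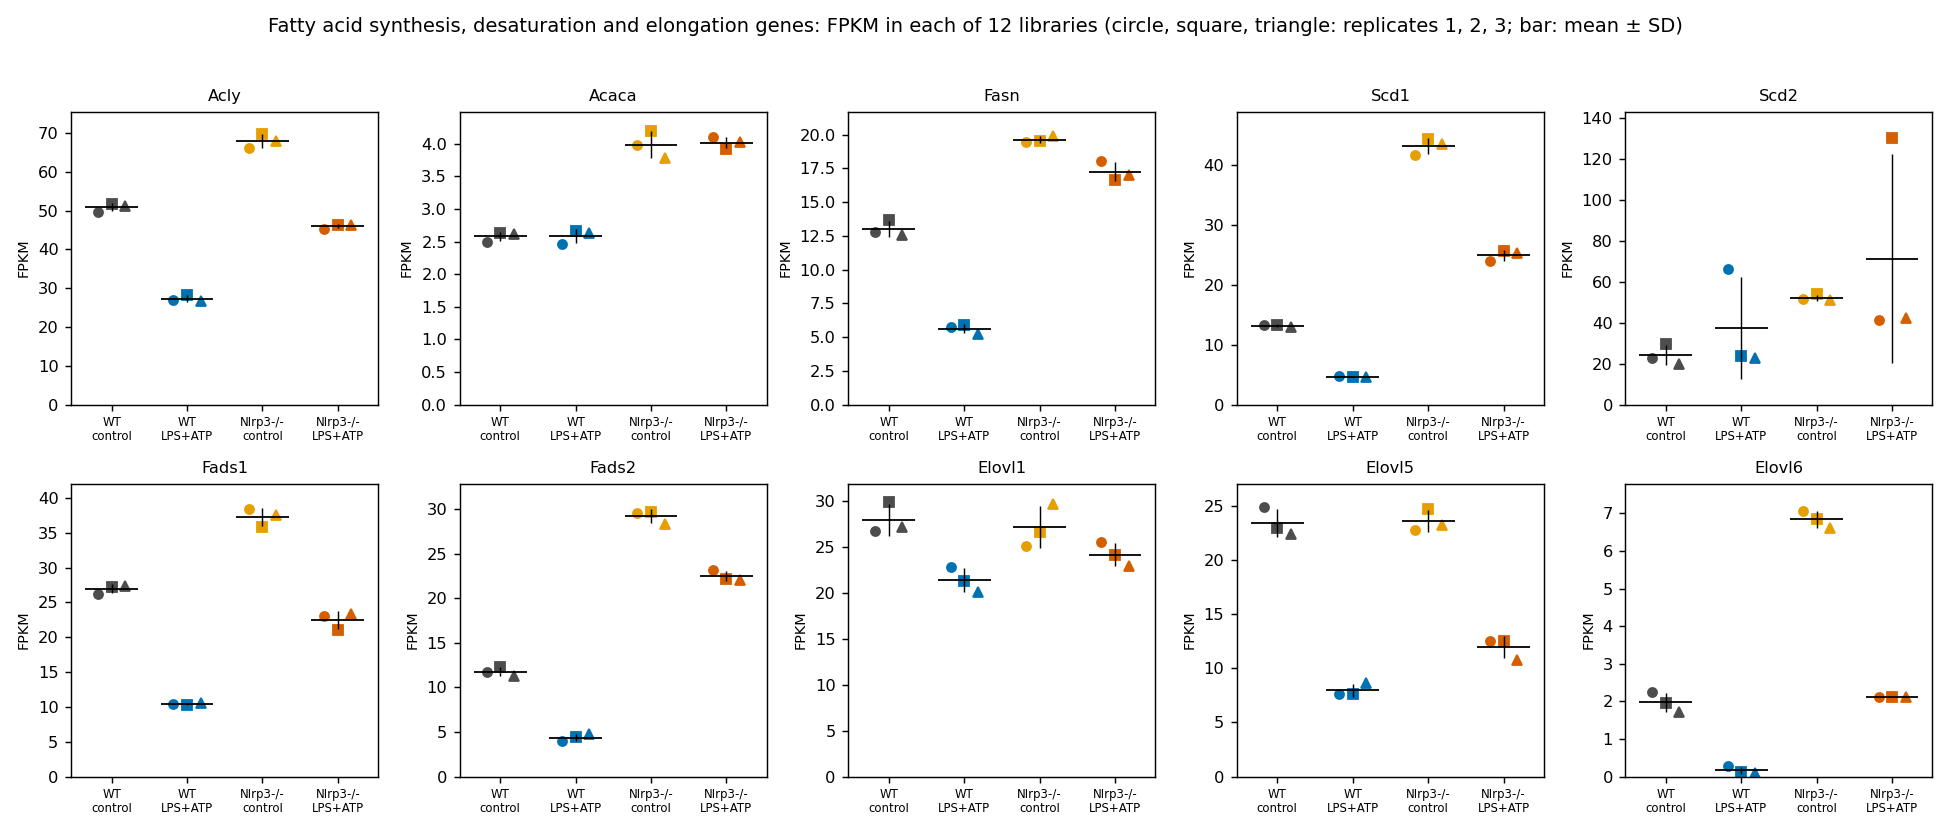
Level of each of the 10 genes in FPKM (vertical axis, one scale per panel, starting at 0) in the 12 libraries of the 4 groups, with markers for replicates, a horizontal bar for the mean and a vertical bar for the SD. Wild-type LPS+ATP libraries are the lowest group for Acly, Fasn, Scd1, Fads1, Fads2, Elovl5 and Elovl6, Acaca separates by genotype alone, and Scd2 has 1 library far above its replicates in each stimulated group.

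The first question was how LPS+ATP changed the transcripts of each step in wild-type BMDMs. In words, transcripts of the citrate-cleaving enzyme, the synthase and most desaturases and elongases fell. That of the carboxylase Acaca was at the same FPKM before and after, which came to a rise of 0.24 on the log2 scale under median-ratio scaling. A gene was a differentially expressed gene (DEG) when its adjusted p in limma was under 0.05 and its log2 fold change, on log2(FPKM + 1), was at least 1 in either direction. "Fell" and "rose" are used for an adjusted p under 0.05 alone. Of the 10 genes, 6 were DEGs with lower levels (Fasn, Scd1, Fads1, Fads2, Elovl5 and Elovl6) and 0 were DEGs with higher levels, where 11.2% of all tested genes were lower and 8.25% higher. By adjusted p alone 8 fell and 0 rose, where 53.1% of all genes fell and 23.3% rose. The median log2 fold change was -1.17 for the 10 genes and -0.26 for all genes.

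Acly stood at 49.7, 51.7 and 51.2 FPKM in the wild-type control libraries and at 27.1, 28.4 and 26.6 FPKM after LPS+ATP. The stimulated libraries were all lower, by 1.86-fold in the mean, and the log2 fold change was -0.87 (SE 0.03). Acaca, which supplies the malonyl-CoA, read 2.50, 2.63 and 2.61 FPKM in control and 2.46, 2.67 and 2.63 FPKM in stimulated libraries. The groups overlapped fully, with a log2 fold change of 0.00 (SE 0.05) and a 95% confidence interval from -0.10 to 0.11. Fasn, the next enzyme, went from 12.8, 13.6 and 12.6 FPKM to 5.71, 5.90 and 5.24 FPKM. Its libraries did not overlap, and the mean was 2.32-fold lower, a log2 fold change of -1.08 (SE 0.05). The ratio of Fasn to Acaca within a library was therefore 4.82 to 5.19 in controls and 1.99 to 2.32 after LPS+ATP.

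Scd1, the stearoyl-CoA desaturase, was at 13.3, 13.3 and 13.0 FPKM in controls and at 4.73, 4.54 and 4.61 FPKM after LPS+ATP. It was 2.85-fold lower with no overlap, at a log2 fold change of -1.34 (SE 0.04). Scd2, its relative, read 22.8, 29.4 and 19.97 FPKM in controls and 66.0, 23.7 and 22.5 FPKM after LPS+ATP. The first stimulated library was 2.86 times the mean of the other pair, which lay within the control range, and the log2 fold change of 0.45 had an SE of 0.46. Without that library it was -0.04, so no shift of Scd2 was measurable.

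Fads1, the delta-5 desaturase, fell from 26.3, 27.3 and 27.4 FPKM to 10.5, 10.3 and 10.5 FPKM. Fads2, the delta-6 desaturase, fell from 11.8, 12.3 and 11.3 FPKM to 3.96, 4.42 and 4.76 FPKM. Both fell by a like factor, 2.59-fold and 2.69-fold, with log2 fold changes of -1.29 (SE 0.04) and -1.25 (SE 0.05). The ratio of Fads2 to Fads1 was accordingly 0.411 to 0.450 in controls and 0.379 to 0.452 in stimulated libraries, 2 ranges that overlap.

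Among the elongases, Elovl5 went from 24.9, 23.0 and 22.4 FPKM to 7.63, 7.62 and 8.64 FPKM, 2.94-fold lower, at a log2 fold change of -1.45 (SE 0.07). Elovl6 went from 2.24, 1.95 and 1.73 FPKM to 0.271, 0.128 and 0.0913 FPKM. All 3 stimulated libraries were under 1 FPKM, so Elovl6 passed the filter through the other groups. Its mean was 12.1-fold lower, the largest linear ratio among the 10, but the log2 fold change of -1.35 (SE 0.07) on log2(FPKM + 1) understates a gene this low and became -3.03 with 0.1 in place of 1. Elovl1, the very-long-chain elongase, moved least of those that fell, from 26.7, 29.9 and 27.2 FPKM to 22.8, 21.3 and 20.1 FPKM. Its ranges did not overlap, and its log2 fold change was -0.37 (SE 0.07), close to the median of all genes.

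The second question was whether the same transcripts responded in Nlrp3-/- BMDMs. Of the 8 genes that fell in wild type, 7 also fell here, and Elovl6 alone was a DEG. Under median-ratio scaling 5 of them fell, without Fasn and Fads2, and the median of all genes was -0.01. Wherever counts under that scaling are given, the share of all genes called by adjusted p alone was not determined. Of the 10, 1 was a DEG with a lower level and 0 with a higher one, where 8.21% and 6.64% of all genes were. By adjusted p alone 7 fell and 0 rose, where 53.8% of all genes fell and 20.6% rose. The median log2 fold change was -0.46 for the 10 genes and -0.24 for all genes.

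Fasn gave 19.4, 19.5 and 19.9 FPKM in Nlrp3-/- control and 18.1, 16.7 and 17.0 FPKM in Nlrp3-/- LPS+ATP libraries. The groups were separate, but the mean was only 1.14-fold lower and the log2 fold change was -0.18 (SE 0.05), short of the median of all genes. Fads2 gave 29.6, 29.7 and 28.4 FPKM against 23.1, 22.2 and 22.1 FPKM. Every stimulated library was lower, by 1.30-fold in the mean, with a log2 fold change of -0.36 (SE 0.05). In both genes each stimulated Nlrp3-/- library stayed above each unstimulated wild-type library.

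Acly went from 66.1, 69.7 and 68.1 FPKM to 45.3, 46.2 and 46.3 FPKM, a log2 fold change of -0.55 (SE 0.03). Scd1 went from 41.8, 44.4 and 43.6 FPKM to 23.9, 25.7 and 25.3 FPKM, a log2 fold change of -0.77 (SE 0.04). Fads1 went from 38.4, 35.8 and 37.6 FPKM to 23.0, 20.98 and 23.3 FPKM, a log2 fold change of -0.71 (SE 0.04). In these 3 genes the stimulated Nlrp3-/- libraries lay below their own controls without overlap. Acly and Fads1 then lay below, and Scd1 above, their libraries of unstimulated wild-type BMDMs. Elovl5 went from 22.8, 24.7 and 23.2 FPKM to 12.5, 12.5 and 10.7 FPKM, a log2 fold change of -0.93 (SE 0.07). Elovl6 went from 7.07, 6.84 and 6.62 FPKM to 2.11, 2.12 and 2.11 FPKM, a log2 fold change of -1.33 (SE 0.07).

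Acaca (3.98, 4.19 and 3.78 FPKM in control, 4.10, 3.92 and 4.03 FPKM with LPS+ATP) again overlapped between states, at a log2 fold change of 0.01 (SE 0.05). Elovl1 overlapped too, with 25.1, 26.6 and 29.7 FPKM in control and 25.5, 24.1 and 22.9 FPKM in stimulated libraries. Scd2 read 51.5, 53.7 and 51.1 FPKM in control and 41.3, 130.3 and 42.3 FPKM in stimulated libraries. The second stimulated library was 3.12 times the mean of the other pair, which lay below all 3 controls. The log2 fold change of Scd2 was 0.23 (SE 0.46) with that library and -0.31 without it, a change of sign.

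**Figure D2:**
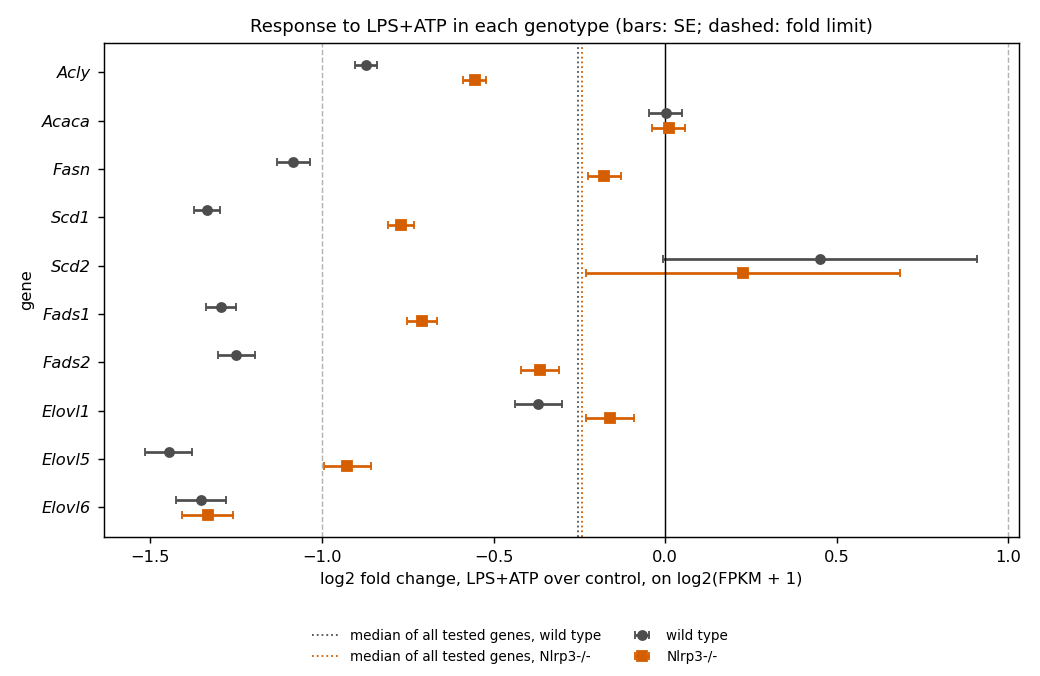
Log2 fold change of LPS+ATP over control on log2(FPKM + 1) (horizontal axis) for each gene in wild-type (circles) and Nlrp3-/- BMDMs (squares), with SE bars, the median of all tested genes as dotted lines and the fold limit of 1 as dashed lines. Fasn moves from -1.08 in wild type to -0.18 in Nlrp3-/-, Fads2 from -1.25 to -0.36, and Acaca is at 0.00 and 0.01 on this scale.

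The difference between both responses is the interaction term, in which a positive value means a smaller fall in Nlrp3-/- BMDMs. It was 0.91 (SE 0.07) for Fasn and 0.88 (SE 0.08) for Fads2 on the log2 scale. It was 0.57 (SE 0.05) for Scd1, 0.58 (SE 0.06) for Fads1, 0.52 (SE 0.10) for Elovl5 and 0.32 (SE 0.05) for Acly. These 6 genes had an adjusted p under 0.05, all with positive terms, where 14.7% of all genes had positive and 13.0% negative terms. None of the 10 reached the fold limit, which 0.721% of all genes passed upward and 1.43% downward. Acaca (0.01), Elovl1 (0.21) and Scd2 (-0.22, SE 0.65) did not pass. Elovl6 had a term of 0.02 (SE 0.10) on log2(FPKM + 1) although its linear mean was 12.1-fold lower in wild type and 3.24-fold lower in Nlrp3-/-, and with 0.1 added in place of 1 the term was 1.38. The median term was 0.42 for the 10 genes and 0.02 for all genes.

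The third comparison set Nlrp3-/- against wild-type BMDMs before stimulation. Scd1, Elovl6 and Fads2 had the largest called differences, and the libraries of Elovl1 and Elovl5 overlapped. Of the 10, 3 were DEGs with higher levels in Nlrp3-/- (Scd1, Fads2 and Elovl6) and 0 with lower levels, where 6.02% and 0.689% of all genes were. By adjusted p alone 7 were higher and 0 lower, where 33.3% and 14.5% of all genes were. The median was 0.52 for the 10 genes and 0.09 for all genes. Under median-ratio scaling, with the median of all genes at -0.03, 7 were higher and 1 lower by adjusted p alone. The share of all genes was not determined there. Elovl1 was then at -0.19 and Elovl5 at -0.14. Scd1 was 3.28-fold, Elovl6 3.47-fold and Fads2 2.48-fold higher in the mean, with log2 fold changes of 1.64 (SE 0.04), 1.40 (SE 0.07) and 1.243 (SE 0.05).

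Fads1 was 1.38-fold, Acly 1.34-fold, Fasn 1.51-fold and Acaca 1.54-fold higher, all without overlap of libraries. Scd2 was 2.16-fold higher, with 3 separate libraries on each side, but its log2 fold change of 1.10 had an SE of 0.46, from a spread estimated over all 4 groups, and missed the threshold. With both libraries of outlying Scd2 left out, it kept that value and was a DEG. Elovl1 and Elovl5 overlapped between genotypes, at -0.04 (SE 0.07) and 0.01 (SE 0.07). The fibroblast and neutrophil marker sums above were higher in the same Nlrp3-/- libraries, and their part in these differences was not tested.

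After LPS+ATP, the genotypes lay further apart for most of these transcripts. Of the 10, 5 were DEGs with higher levels in Nlrp3-/- (Fasn, Scd1, Fads1, Fads2 and Elovl6) and 0 with lower levels, where 4.48% and 0.570% of all genes were. By adjusted p alone 8 were higher and 0 lower, where 35.9% and 12.6% of all genes were, and the median was 0.96 for the 10 and 0.11 for all genes. In the mean, Elovl6 was 12.9-fold, Scd1 5.40-fold, Fads2 5.13-fold, Fasn 3.07-fold and Fads1 2.15-fold higher. Their log2 fold changes were 1.42 (SE 0.07), 2.21 (SE 0.04), 2.13 (SE 0.05), 1.47 (SE 0.05) and 1.04 (SE 0.04). Fads1 came to 0.86 under median-ratio scaling, below the fold limit.

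Elovl5, alike in unstimulated cells, stood at 7.96 ± 0.585 FPKM in stimulated wild-type and at 11.9 ± 1.04 FPKM in stimulated Nlrp3-/- libraries (SD, n = 3), a log2 fold change of 0.53 (SE 0.07). Acaca kept nearly the ratio it had before stimulation, 1.56-fold, and Acly was 1.68-fold higher. Elovl1 libraries were separate by a narrow margin, 20.1 to 22.8 FPKM in wild type and 22.9 to 25.5 FPKM in Nlrp3-/-, at a log2 fold change of 0.17 (SE 0.07) that did not pass the threshold. Under median-ratio scaling this fold change was -0.01. Scd2 libraries overlapped, at 0.88 (SE 0.46). The comparisons share groups of libraries with each other, so their values stand side by side and are not independent of one another.

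**Figure D3:**
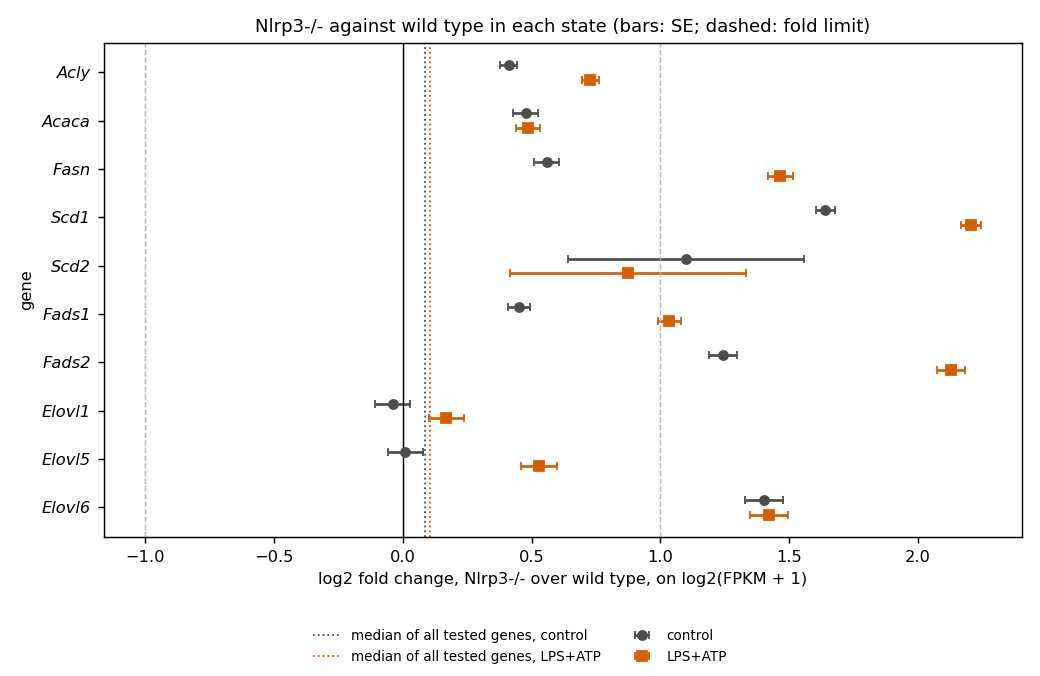
Log2 fold change of Nlrp3-/- over wild type on log2(FPKM + 1) (horizontal axis) for each gene in control (circles) and LPS+ATP (squares) BMDMs, with SE bars, dotted medians of all tested genes and dashed fold limits. Scd1 and Fads2 reach 2.21 and 2.13 after LPS+ATP, Elovl6 is at 1.40 and 1.42, and Elovl1 is near 0 in both states.

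Ratios within a library do not depend on the scaling between libraries. Fads2 over Fads1 was 0.754 to 0.830 in Nlrp3-/- control and 0.947 to 1.06 in Nlrp3-/- LPS+ATP libraries, above every wild-type library, and the stimulated Nlrp3-/- libraries lay above their controls without overlap. Elovl6 over Elovl5 was 0.0771 to 0.0900 in wild-type control and 0.0106 to 0.0356 in wild-type LPS+ATP libraries. In Nlrp3-/- BMDMs that ratio was 0.277 to 0.310 in control and 0.168 to 0.196 with LPS+ATP, so it went down with stimulation in both genotypes. Fasn over Acaca was 4.66 to 5.27 in Nlrp3-/- control libraries, which overlapped the wild-type controls, and 4.23 to 4.40 with LPS+ATP. Scd1 made up 44.8% to 46.1% of the sum of Scd1 and Scd2 in Nlrp3-/- control and 31.2% to 39.4% in wild-type control libraries. With LPS+ATP this share was 6.69% to 17.0% in wild type and 16.5% to 37.4% in Nlrp3-/-, and the lowest share of each group was in the library of outlying Scd2.

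**Figure D4:**
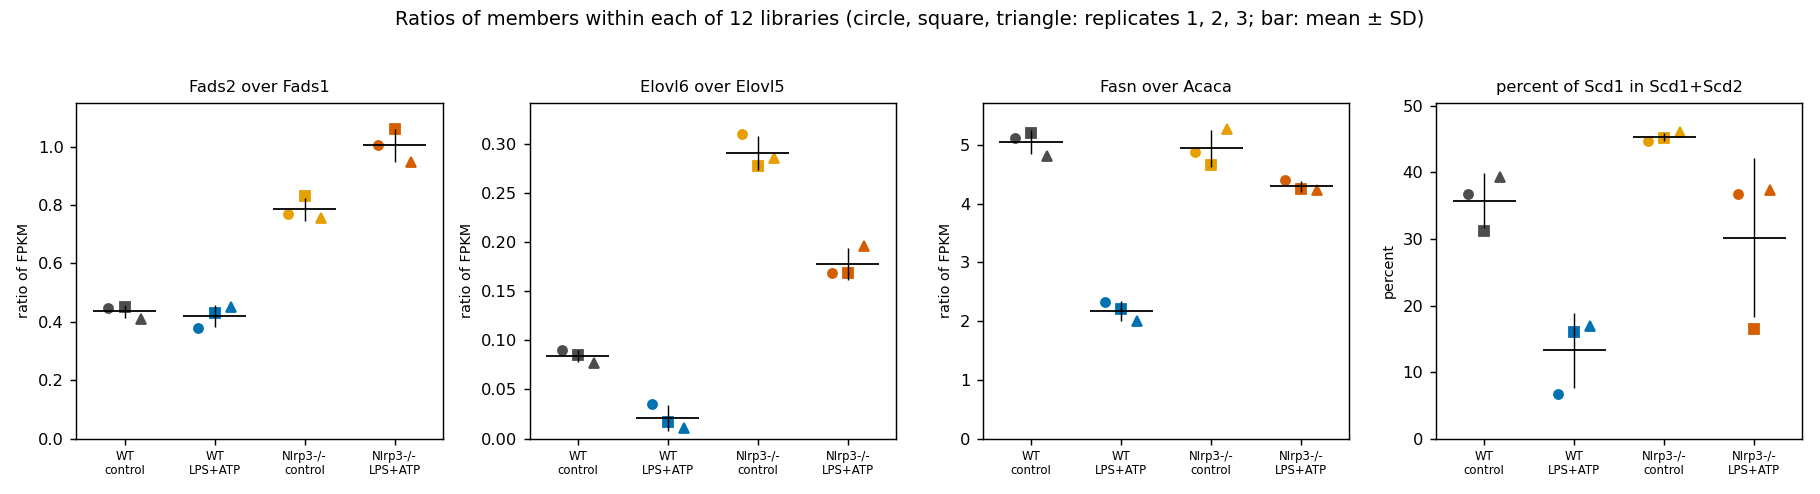
Ratio of FPKM within each of the 12 libraries for 3 gene pairs, and the percent of Scd1 in the sum of Scd1 and Scd2 (vertical axes from 0), with mean and SD bars. Fads2 over Fads1 separates the genotypes in both states, and Fasn over Acaca is low only in wild-type LPS+ATP libraries, at 1.99 to 2.32.

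Scd2 was the most variable of the 10, with a coefficient of variation of 66.2% in wild-type LPS+ATP and 71.7% in Nlrp3-/- LPS+ATP libraries. In wild-type LPS+ATP replicate 1, 5 of 5532 genes with at least 5 FPKM in both other replicates were more than 2-fold above each of them, and in Nlrp3-/- LPS+ATP replicate 2, 5 of 6038 were. The 4 genes Eif1a, Krcc1, Rac1 and Scd2 were common to both libraries. Krcc1 also stood out in this way in wild-type control replicate 1, and Rac1 in wild-type control replicate 2. Other libraries shared such genes too, among them Tlr7 and Arf1. Other libraries had 2 to 9 such genes, so both were unremarkable in that count. None of the other 9 enzymes was among these genes, and the cause of the Scd2 values was not tested. Elovl6 in wild-type LPS+ATP libraries varied by 58.1%, at levels under 1 FPKM.

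On stimulation, the regulators of the pathway did not follow the enzymes as one. Srebf1, which encodes SREBP-1, the main activator of fatty acid synthesis genes, lay between 11.97 and 15.3 FPKM in all 12 libraries, with a log2 fold change on stimulation of 0.05 in wild type (limma adjusted p = 0.413) and 0.14 in Nlrp3-/- (adjusted p = 0.0259), with an interaction of 0.09 (adjusted p = 0.377). Its transcript level says nothing of how much SREBP-1 was cleaved. Srebf2, which encodes SREBP-2, fell in both genotypes by nearly the same amount, -0.72 (adjusted p = 2.66e-06) and -0.70 (adjusted p = 4.07e-06), with an interaction of 0.02 (adjusted p = 0.910). Under median-ratio scaling the falls of Srebf2 were -0.41 and -0.42. Insig1, an SREBP target that retains the SREBP complex in the endoplasmic reticulum, had 49.6, 49.6 and 49.5 FPKM in wild-type control and 25.1, 24.6 and 24.8 FPKM in wild-type LPS+ATP libraries. In Nlrp3-/- BMDMs it had 56.2, 53.7 and 54.4 FPKM in control and 50.3, 50.3 and 50.2 FPKM with LPS+ATP. The fall of Insig1 was thus -0.97 in wild type and -0.12 in Nlrp3-/-, with an interaction of 0.85 (adjusted p = 1.00e-07), a size like that of Fasn and Fads2. Nr1h3, the gene of LXR-alpha, changed by 0.18 in wild type (adjusted p = 0.0262) and by -0.08 in Nlrp3-/- (adjusted p = 0.308), with an interaction of -0.26 (adjusted p = 0.0622).

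Of 14 listed regulators, 12 were tested. In wild type 2 rose and 6 fell after LPS+ATP, where 23.3% of all genes rose and 53.1% fell, and in Nlrp3-/- 1 rose and 8 fell, where 20.6% rose and 53.8% fell. The wild-type count is near the share of all genes. The only DEG among them was Scap, the SREBP escort protein, at -1.04 in wild type (adjusted p = 5.1e-09). Its mean went from 6.99 to 2.88 FPKM in wild type and from 8.19 to 5.51 FPKM in Nlrp3-/-. Mbtps1 went from 8.68 to 5.40 FPKM and from 10.4 to 8.60 FPKM. By the interaction term, 3 of the 12 had positive and 0 negative called terms, where 14.7% and 13.0% of all genes did. The median term was 0.02, as for all genes. In control, 7 of the 12 were higher and 1 lower in Nlrp3-/-, where 33.3% and 14.5% of all genes were. With LPS+ATP 6 were higher and 0 lower, where 35.9% and 12.6% of all genes were. Mean ratios of Nlrp3-/- to wild type in control were 1.06 for Srebf1, 1.45 for Srebf2, 1.11 for Insig1 and 1.63 for Nr1h3. With LPS+ATP the ratios were 1.13, 1.48, 2.03 and 1.34. Median-ratio scaling turned the sign of Insig1 on stimulation in Nlrp3-/- to 0.17, left Insig1 at -0.65 in wild type and took Scap to -0.78. Under it 4 regulators rose and 5 fell in wild type, and 4 rose and 2 fell in Nlrp3-/-. The share of all genes that rose or fell under that scaling was not determined, so these counts have no background. Srebf1 then rose in both genotypes, by 0.35 and 0.41 (adjusted p = 5.50e-05 and 1.98e-05), and Nr1h3 rose by 0.49 and 0.20 (adjusted p = 5.49e-05 and 0.0239). Mbtps1 and Prkaa1 also changed sign on stimulation in Nlrp3-/- under that scaling. For genotype under it, 2 regulators were higher and 2 lower in control, and 5 higher and 1 lower with LPS+ATP.

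**Figure D5:**
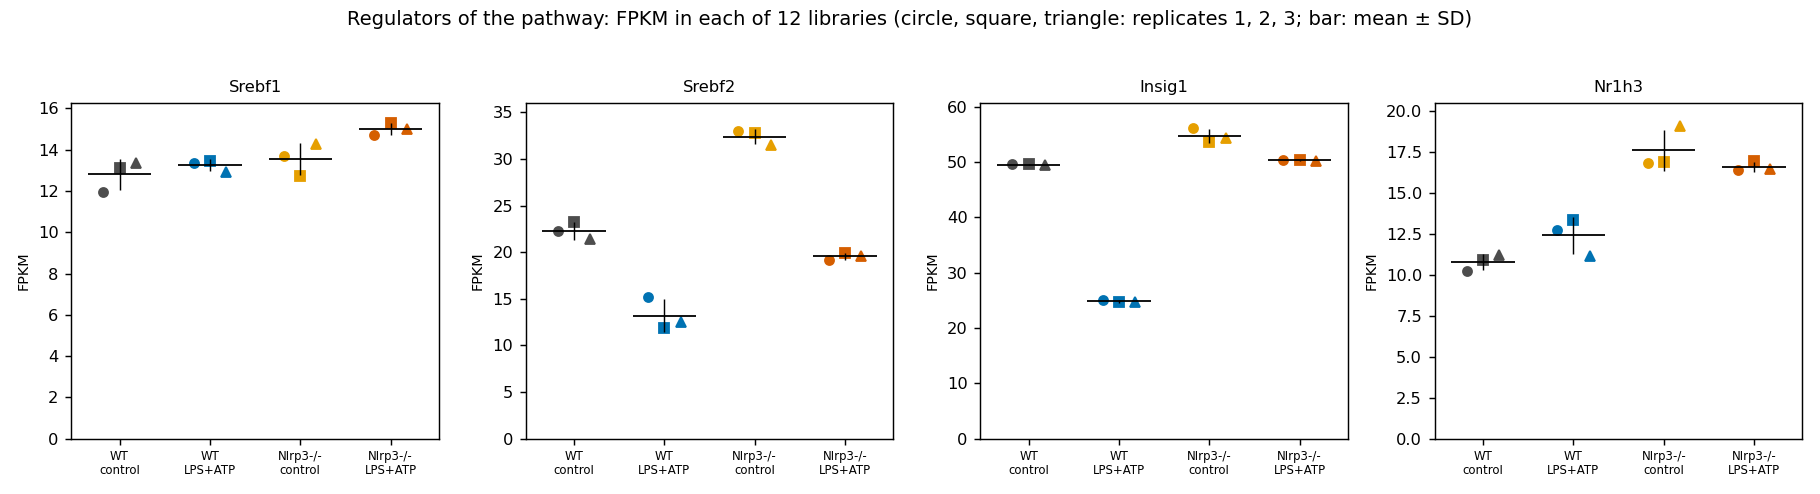
Level in FPKM (vertical axes from 0) of Srebf1, Srebf2, Insig1 and Nr1h3 in the 12 libraries, with mean and SD bars. Insig1 stands near 25 FPKM in wild-type LPS+ATP libraries and at 49.5 to 56.2 FPKM in the others, and Srebf1 lies between 11.97 and 15.3 FPKM throughout.

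Genes around the 10 enzymes moved in several directions, and their counts stand beside the shares of all genes that rose and fell, 23.3% and 53.1% in wild type and 20.6% and 53.8% in Nlrp3-/-. The lists were chosen with earlier results known, and most genes are named for their large changes. Their p-values are therefore a description and no independent evidence. Of 9 genes that supply substrate and NADPH, 7 were tested, and in wild type 4 rose and 2 fell after LPS+ATP. Me1, the malic enzyme that makes NADPH, rose by 1.36 (adjusted p = 6.68e-09), while Idh1 fell by 1.64 (adjusted p = 2.05e-05). In Nlrp3-/- 3 rose and 2 fell, with Idh1 lower by 1.16 (log2 fold change -1.16, adjusted p = 3.66e-04). Me1 was also higher in Nlrp3-/- control than in wild-type control BMDMs, by 1.71 (adjusted p = 3.94e-09).

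Of 7 other desaturases and electron carriers, 4 were tested, and 3 rose and 1 fell in each genotype, none past the fold limit. The gene that fell, Cyb5b, changed sign in both genotypes under median-ratio scaling. Fads3, of the family of Fads1 and Fads2, was higher in Nlrp3-/- by 1.73 in control (adjusted p = 2.09e-09) and by 1.77 after LPS+ATP (adjusted p = 2.61e-09). Of 10 other genes of the elongation cycle, 6 were tested, and 1 rose and 4 fell in wild type, while 0 rose and 4 fell in Nlrp3-/-. Hacd4, of the 3-hydroxyacyl-CoA dehydratase family, fell in both by a like amount, -1.97 (adjusted p = 2.19e-11) and -2.04 (adjusted p = 2.16e-11). Hacd1 was a DEG in Nlrp3-/- alone, at -1.16 (adjusted p = 5.87e-08). Its mean fell by a like factor in both, from 5.54 to 1.92 FPKM in Nlrp3-/- and from 2.55 to 0.946 FPKM in wild type. Libraries did not overlap in either, and at such levels the log2 fold change depends on the pseudocount.

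Of 5 long-chain acyl-CoA synthetases, which activate free fatty acids, 4 were tested. Acsl1 rose by 4.16 in wild type (adjusted p = 6.36e-11) and by 3.73 in Nlrp3-/- (adjusted p = 2.27e-10), the opposite of the 8 enzymes that fell. Acsl3 fell by 1.238 in wild type (adjusted p = 9.8e-10) and was higher in Nlrp3-/- after LPS+ATP, by 1.09 (adjusted p = 1.71e-08). Of 13 genes of mitochondrial fatty acid oxidation, 12 were tested, and 11 fell in wild type, where 53.1% of all genes did, and 12 in Nlrp3-/-, where 53.8% did. The largest falls were Acaa2, the thiolase, in wild type (-1.89, adjusted p = 5.39e-10) and Acadm, the medium-chain dehydrogenase, in Nlrp3-/- (-1.89, adjusted p = 1.44e-11). Under median-ratio scaling 6 fell and 1 rose in wild type, and 8 fell in Nlrp3-/- with Acadl turning sign. The share of all genes was not determined there. The oxidation list had a median interaction of 0.07, with 2 positive and 1 negative called terms among the 12 tested. Of all genes, 14.7% had positive and 13.0% negative called terms. The list for supply of substrate and NADPH had a median of -0.15, with 1 positive and 4 negative called terms among 7 tested. The median of the 10 enzymes, chosen with such values known, was 0.42.

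Over the 12 libraries, the genes outside these enzymes whose log2 levels followed Fasn most closely were Slc29a1 (Pearson r = 0.994), Slc1a5 (r = 0.994) and Zc3h7b (r = 0.991). Those closest to Fads2 were Kank2 (r = 0.993), Slc43a3 (r = 0.990) and Tmem97 (r = 0.990). For Scd2 the closest were Prpf40b (r = 0.825), Dmtf1 (r = 0.818) and Clk3 (r = 0.816). The points fall into 4 groups that share libraries, so the correlations describe a common group pattern.

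The scale between libraries affects how far these genes stand from 0. With median-ratio scaling, which puts the median gene at no change, the median of all genes moved from -0.26 to -0.01 on stimulation in wild type and from -0.24 to -0.01 in Nlrp3-/-. All-gene DEGs in wild type then numbered 1400 higher and 878 lower, against 1041 and 1411, and in Nlrp3-/- 1094 and 605, against 838 and 1036. Of the 6 enzymes that were DEGs in wild type, Scd1 (-1.05), Elovl5 (-1.15) and Elovl6 (-1.26) remained so, and Fads1 (-0.99), Fads2 (-0.97) and Fasn (-0.79) came under the fold limit. Acaca rose by 0.24 in both genotypes on that scale, and Elovl1 in wild type came to -0.05 and was no longer called. In Nlrp3-/-, Fasn reversed to 0.10 and Fads2 came to -0.08, both without a call, while Elovl6 (-1.09), Elovl5 (-0.65), Scd1 (-0.48), Fads1 (-0.42) and Acly (-0.27) kept their direction. The interaction terms of 6 genes stayed positive and called, with the share of all genes called on that scale not determined.

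Acaca shares 99.2% identity over 64.3% of its longest transcript with the processed pseudogene Gm5182, so its count may include reads of that copy. Antisense genes overlap Acaca and Elovl6, Cdc20 meets the end of Elovl1 on the other strand, and the use of strand in counting is not given in the sources used here, so reads of such partners could not be told apart.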

How the data were processed

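RNA-seq of 12 BMDM libraries, 3 per group, was analysed. Libraries were prepared with the TruSeq RNA kit from total RNA. The authors deposited 1 table of FPKM per gene and library. The submitters' processing notes name GRCm39 and DESeq2 1.24.0, and the aligner, counter and annotation are not given in the sources used here. FPKM holds no read counts, so the depth in reads is unknown. FPKM sums per library were 283278 to 299393, and the steps between low values put relative depths at 1.0 to 1.22.

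Tests covered the 12622 of 55335 genes that reached 1 FPKM in 3 or more libraries, run on log2(FPKM + 1), a pseudocount of 1, with limma 3.58.1 in R 4.3.3, with 1 mean per group, a variance trend and Benjamini-Hochberg adjustment, after the script was tested on simulated data. The DEG thresholds were an adjusted p of 0.05 and a log2 fold change of 1. Replicate numbers did not pair libraries, with correlations of deviations from -0.06 to 0.05 for equal numbers. Replicates correlated at 0.990 to 0.993 (Pearson r). Named genes were the 10 enzymes, the DEGs with the largest rise and fall in each pathway list and comparison, Srebf1, Srebf2, Insig1, Nr1h3, the 3 closest patterns of Fasn, Scd2 and Fads2, and checks. Fads3, Cyb5b and genes that changed sign were named by the same lists or after their values were seen. The members and lists were chosen with earlier results of these data known. Near copies were found with blastn 2.17.0+ on GENCODE release M21 transcripts. Promoters came from RefSeq. Alternatives were another pseudocount, filters, scalings, TPM, a replicate block, no variance trend, compared groups alone, no fold limit and leaving out each library. Leaving out both libraries of outlying Scd2 was chosen after seeing the data. Figures used Python 3.11.15 and matplotlib 3.10.9.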

Additional observations from a re-analysis of the deposited data

Results flagged for a closer look

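The response to LPS+ATP differed between genotypes by the interaction term (limma adjusted p under 0.05) in 6 of the 10 enzymes, each with a smaller fall in Nlrp3-/- than in wild-type BMDMs, where 14.7% of all genes had positive and 13.0% negative terms. The difference, Nlrp3-/- minus wild type on the log2 scale, was 0.91 for Fasn, 0.88 for Fads2, 0.58 for Fads1, 0.57 for Scd1, 0.52 for Elovl5 and 0.32 for Acly. The genes were chosen with such results known, so these terms are no independent evidence. Xist and the fibroblast and neutrophil marker sums also differed between the genotypes, and their part in these terms was not tested. Groups of 3 libraries were not searched for single outlying ones by a test.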

How the results depend on the processing

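Depth in reads was unknown, groups had 3 libraries, and low genes depended on the pseudocount. Of the fold changes of the 10 enzymes under the alternatives tried, 1005 kept direction and DEG call or moved by less than the spread between replicates. Another 14 moved, 9 gained and 6 lost the DEG call, and 1 reversed, Fasn on stimulation in Nlrp3-/- under median-ratio scaling (0.10). A member that lost only its call by adjusted p alone was counted as kept. The tally also includes fits that cannot change a fold. These are the replicate block, no variance trend, compared groups alone and leaving out a library outside the compared groups. Without the fold limit, 8 of the 10 were called on stimulation in wild type and 7 in Nlrp3-/-, all lower. Of all genes, 53.1% were lower and 23.3% higher in wild type, and 53.8% and 20.6% in Nlrp3-/-. For genotype, 7 were called in control and 8 with LPS+ATP, all higher in Nlrp3-/-. Of all genes, 33.3% were higher and 14.5% lower in control, and 35.9% and 12.6% with LPS+ATP. For the interaction 6 were called, all positive, where 14.7% of all genes had positive and 13.0% negative terms. The interaction count of 0 became 3 with a pseudocount of 0.1 (Fasn, Fads2 and Elovl6) and 2 with TPM (Fasn and Fads2). Of all genes, 272 of 12622 then passed upward and 362 downward with that pseudocount, and 231 and 374 of 16026 with TPM. Median-ratio scaling took the count on stimulation in wild type from 6 to 3, while all-gene DEGs with lower levels went from 1411 to 878. With each library left out in turn, the counts were 6 to 6 on stimulation in wild type, 1 to 1 in Nlrp3-/-, 3 to 4 for genotype in control, 5 to 6 for genotype with LPS+ATP and 0 to 0 for the interaction. In the full fit, 11.2% of all genes were DEGs with lower levels on stimulation in wild type and 8.21% in Nlrp3-/-. DEGs with higher levels in Nlrp3-/- were 6.02% of all genes in control and 4.48% with LPS+ATP. For the interaction, 0.721% passed upward and 1.43% downward. The gain was Scd2, for genotype in control without wild-type LPS+ATP replicate 1 or without Nlrp3-/- LPS+ATP replicate 2, and for genotype with LPS+ATP without wild-type LPS+ATP replicate 1 (Scd2 1.37, against 0.34 without Nlrp3-/- LPS+ATP replicate 2). For Elovl6, a pseudocount of 0.1 changed the log2 fold change from -1.35 to -3.03 on stimulation in wild type, from 1.42 to 3.13 for genotype with LPS+ATP and from 0.02 to 1.38 for the interaction. A minimum of 5 FPKM dropped Acaca. The fit with a replicate block gave the same counts, 6, 1, 3, 5 and 0, and changed no fold. The labels give the replicate numbers no shared origin, and 3 of 12 libraries correlated best with their own number. Searching motifs on the gene strand alone left CCAAT in 3 and GGGCGG in 3 of the 8 windows, against 21.1% and 23.4% of all promoters.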
